A study of Mus musculus with 18 samples.

Results

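The miR-17-92 cluster and its paralogs were followed in mouse adipose stromal cells (ASC) and in the extracellular vesicles (EVs) those cells shed. The members were the 10 hairpin loci Mir17, Mir18, Mir19a, Mir20a, Mir19b-1, Mir92-1, Mir106b, Mir93, Mir25 and Mir92-2, chosen by symbol from the 2009 miRNA loci of the count files. Mir18 is the symbol for miR-18a, and Mir92-1 and Mir92-2 are miR-92a-1 and miR-92a-2. Small RNA libraries of 4 groups were compared: primed EV (n = 5, numbered 1 to 5), naive EV (n = 5, numbered 1 to 5), primed ASC (n = 4, numbered 2 to 5) and naive ASC (n = 4, numbered 1, 3, 4 and 5). Primed cells had 24 h of interferon gamma, naive cells did not, and both were then held for 48 h in alpha MEM with 2% serum freed of EVs. All cells came from adipose tissue of adult mice of a strain labelled NGL. The primed EVs were thus shed by cells that had received the cytokine, and EVs and cells came from the same cell type. ASC RNA was taken with TRIzol and RNeasy columns and EV RNA with a SeraMir column kit, so the source of the RNA and the kit cannot be told apart in any comparison of EVs with cells. The molecule label of the ASC libraries also reads as EV miRNA; they were grouped by their source names. Whether replicates stem from different animals is not stated, and the title of naive EV 1 joins the numbers 1 and 2, so p-values measure the spread between these samples, which may be technical.

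A miRNA is cut from a hairpin in a longer primary transcript, and bases 2 to 8 of its mature strand, the seed, pair with target mRNAs and lower their output. The miR-17-92 transcript, whose gene is Mir17hg, is an oncogene in B-cell lymphoma, is switched on by Myc, and is known for favouring proliferation and survival through targets such as Bcl2l11. In fat, it is known for promoting the differentiation of adipocyte precursors. A paralog cluster lies within Mcm7, a gene of the replication licensing complex that is induced with the cell cycle, and a further copy of the cluster lies on the X chromosome. The hairpins of a cluster leave the same transcript, and each is known to be cut out by Drosha and turned over at a rate of its own.

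The Mir17hg hairpins Mir17, Mir18, Mir19a, Mir20a, Mir19b-1 and Mir92-1 lie in this order on the plus strand of chromosome 14 between 115043671 and 115044506 (GRCm38), a span of 836 bases, all in the exon of the 1 annotated Mir17hg transcript. Mir106b, Mir93 and Mir25 lie on the minus strand of chromosome 5 between 138165321 and 138165818, a span of 498 bases. They are intronic in 2 of the 10 annotated Mcm7 transcripts, and Mir93 and Mir25 are also exonic in 1. Mir92-2 lies on the minus strand of chromosome X from 52741838 to 52741928, in the X-linked cluster. All 10 members had the same coordinates in the files and in GENCODE M21.

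The dominant mature strands are shown because the loci fall into 4 seed groups that cut across the 3 genomic clusters. Sequences are from RefSeq (GRCm38.p6), read 5′ to 3′, with the seed in capitals.
miR-17-5p: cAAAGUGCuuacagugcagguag
miR-20a-5p: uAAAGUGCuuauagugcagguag
miR-106b-5p: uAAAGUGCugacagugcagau
miR-93-5p: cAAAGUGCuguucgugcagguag
miR-18a-5p: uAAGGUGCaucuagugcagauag
miR-19a-3p: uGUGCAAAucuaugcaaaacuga
miR-19b-3p: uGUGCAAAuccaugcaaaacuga
miR-92a-3p: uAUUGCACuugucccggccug
miR-25-3p: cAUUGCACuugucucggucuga

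Counting bases from 1 at the 5′ end, miR-20a-5p differs from miR-17-5p at 2 positions (C1U and C12U), and miR-19b-3p differs from miR-19a-3p at 1 position (U11C). miR-93-5p differs from miR-17-5p at 4 positions (U10G, A11U, C12U and A13C). Mature miR-92a-3p is the same in Mir92-1 and Mir92-2, and miR-19b-3p is the same in Mir19b-1 and in Mir19b-2 of the X-linked cluster. A read of such a strand can be assigned only by bases that flank it in the hairpin, and those differ as shown in capitals here for the 4 bases on each side of miR-92a-3p.
Mir92-1, chr14:115044472-115044500, plus strand: aUGguauugcacuugucccggccugUUga
Mir92-2, chrX:52741850-52741878, minus strand: aAAguauugcacuugucccggccugAGga

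The flanks share 1 base directly before the strand and none directly after it. Counts were made with no option for multi-mapping reads. A read that the aligner placed at both loci of such a pair may thus not have been counted. Which reads those were depends on aligner options, which were not given in the sources used here. The levels of Mir92-1, Mir92-2, Mir19b-1 and Mir19b-2 are therefore uncertain, and a low count need not mean a scarce mature strand.

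Libraries held 180812 to 3052942 counts on 303 to 423 loci, and the shallowest was primed ASC 4. Mesenchymal and fibroblast miRNAs, a list of 10 loci that all had counts, took 69.4 to 71.5% of counts in primed EVs, 66.8 to 69.96% in naive EVs, 30.4 to 42.0% in primed ASC and 27.4 to 52.5% in naive ASC. A blood cell list, with counts at 6 of 6 loci in every group, took 0.147 to 0.625% in primed EVs and 0.361 to 1.49% in naive EVs, against 0.00916 to 0.0559% in primed ASC and 0.0128 to 0.0214% in naive ASC. The endothelial Mir126a took 0.198 to 0.496% and 0.318 to 0.902% in primed and naive EVs, against 0.00601 to 0.0592% and 0.0105 to 0.0288% in primed and naive ASC. Of an epithelial list, 6 of 6 loci had counts in every group, with 0.000721 to 0.0607% in primed EVs, 0.00142 to 0.287% in naive EVs, 0.00636 to 0.127% in primed ASC and 0.00391 to 0.269% in naive ASC. The liver marker Mir122 was at 0 in naive ASC and reached at most 0.00196% elsewhere, and the muscle loci Mir133a-1 and Mir133a-2 were at 0 in all groups, with the 4 muscle loci together at most 0.00318%. All 6 blood loci and Mir126a were called higher in EVs than in ASC in both comparisons. Of the 9 mesenchymal loci tested, 5 were called higher and 2 lower in primed EVs, and 3 higher and 2 lower in naive EVs. Of the epithelial loci, 2 of 6 were called higher and 0 lower in both comparisons, while the list's median share was 0.0108% in primed EVs against 0.0591% in primed ASC, and 0.0598% in naive EVs against 0.104% in naive ASC. The blood cell, endothelial and mesenchymal shares were higher in every EV library than in any ASC library, like the levels of several members, and their part in the members' differences was not tested.

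The 10 members together took a median of 0.640% of counts in primed EVs, 0.959% in naive EVs, 1.30% in primed ASC and 1.28% in naive ASC. Most of this was Mir92-1, the 3′-most hairpin of its transcript, which held 93.0 to 95.2% of the counts of the Mir17hg cluster in primed EVs and 93.8 to 95.4% in naive EVs, against 99.0 to 99.5% in primed ASC and 98.5 to 99.3% in naive ASC. Per 100 bases of hairpin, the mean level of Mir92-1 was 7719 CPM in primed EVs, 10712 CPM in naive EVs, 11742 CPM in primed ASC and 12803 CPM in naive ASC. CPM here are counts relative to the library total after TMM scaling, a correction of totals for composition. The next loci on this scale were Mir93 and Mir25, with 1167 and 926 CPM per 100 bases in primed EVs, 1312 and 929 in naive EVs, 636 and 734 in primed ASC, and 755 and 855 in naive ASC. Mir19b-1 was last in every group, at no more than 1.02 CPM per 100 bases. Among the 10 members on this scale, Mir19a ranked 6 in primed EVs, 7 in naive EVs and 9 in both ASC groups, and Mir20a ranked 7, 6 and 8. Mir18 went the other way, at 8 in both EV groups and 6 in both ASC groups. These ranks depend on the annotated hairpin length, 107 bases for Mir20a and 82 for Mir19a. Not divided by length, Mir20a was above Mir19a in primed EVs, at 83.2 against 71.7 CPM.

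**Figure D1:**
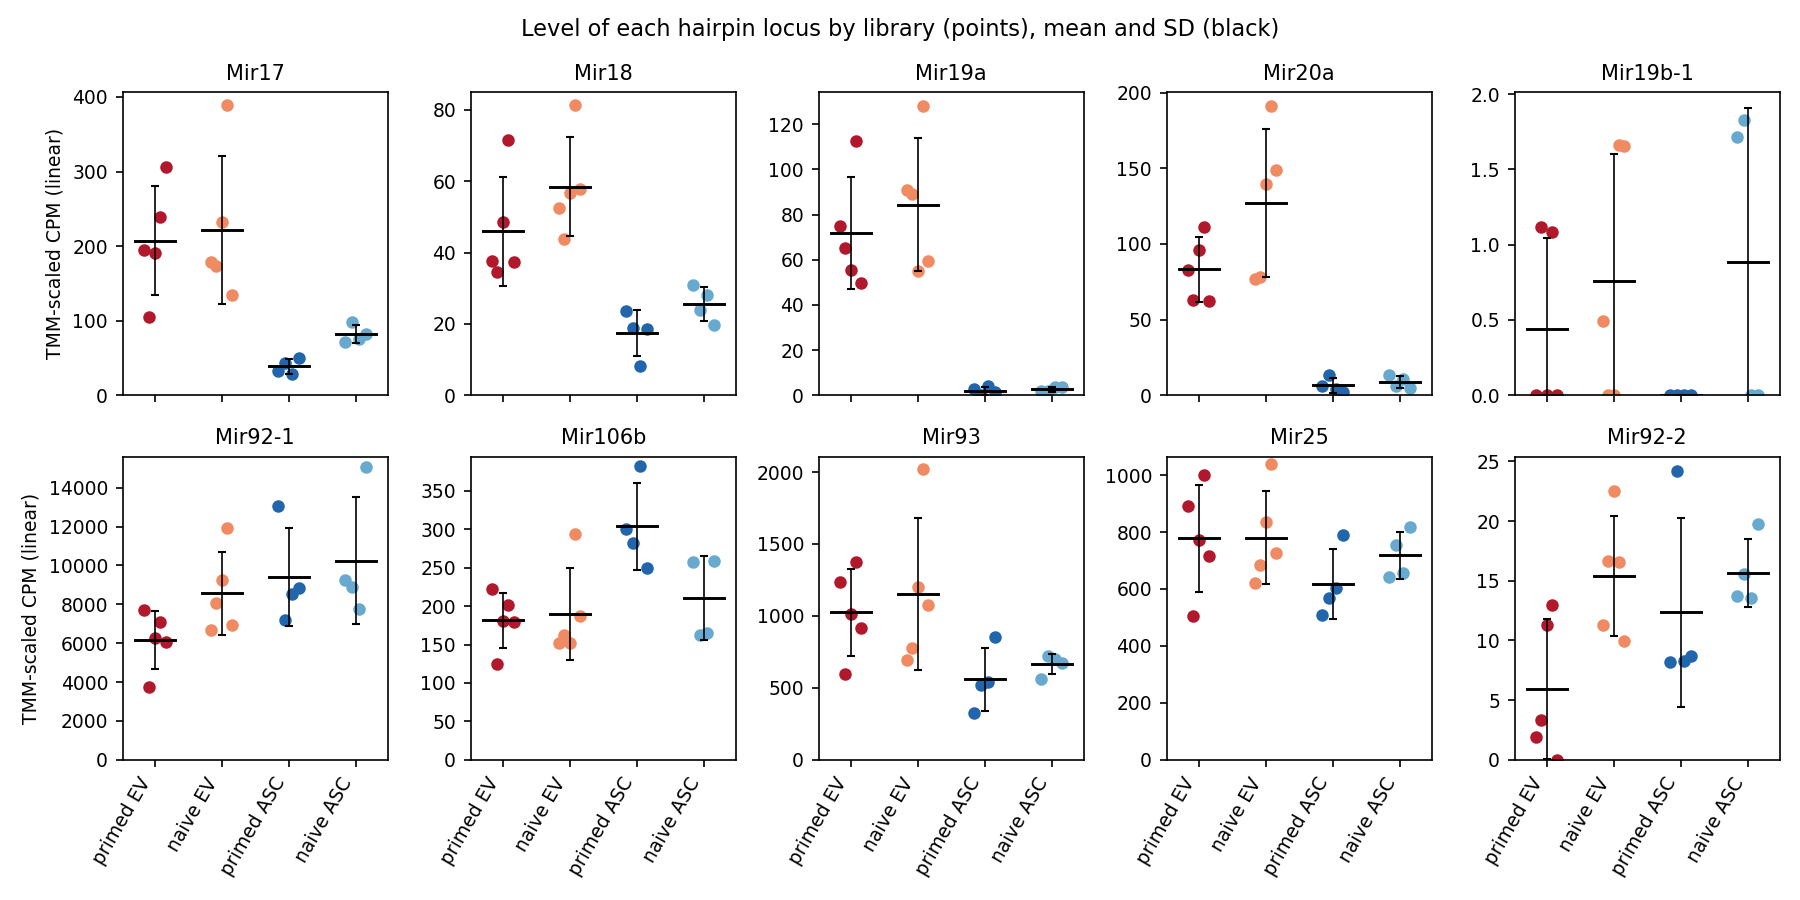
TMM-scaled CPM (linear axes starting at 0, a scale of its own for each locus) of the 10 loci in each library of primed EV, naive EV, primed ASC and naive ASC, with the mean and SD in black; SD bars below 0 are not drawn. Every EV library lies above every ASC library for Mir17, Mir18, Mir19a and Mir20a, while Mir92-1, Mir25 and Mir92-2 overlap between EVs and ASC.

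EVs were compared with the cells that shed them to see which small RNAs differ between vesicle and parent cell. With edgeR's quasi-likelihood test and Benjamini-Hochberg adjustment over the 245 loci tested, 9 of the 10 members could be tested, since Mir19b-1 had too few counts. Of these 9, 5 rose in primed EVs against primed ASC (Mir17, Mir18, Mir19a, Mir20a and Mir93) and 2 fell (Mir92-1 and Mir106b). Over all 245 loci in that comparison, 35.9% were called higher and 32.2% lower, 68.2% in all. In naive EVs against naive ASC, the same 5 loci rose and 0 fell, where 33.5% of all loci were called higher and 32.7% lower, 66.1% in all. Of these 5, Mir19a and Mir20a passed the filter on counts only through EV libraries, where they are high. The median log2 fold change of the 9 members was 0.87 in primed and 0.79 in naive samples, beside medians of 0.02 and −0.24 over all loci tested. The 2 comparisons share no library but are not independent. Both come from the same fit with a shared estimate of the spread, and both carry the difference in kit. Some libraries with the same number also correlated between primed and naive groups. A lower count of a miRNA in a bulk sample can come from fewer cells or vesicles that hold it or from less of it in each, and these cannot be told apart.

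**Figure D2:**
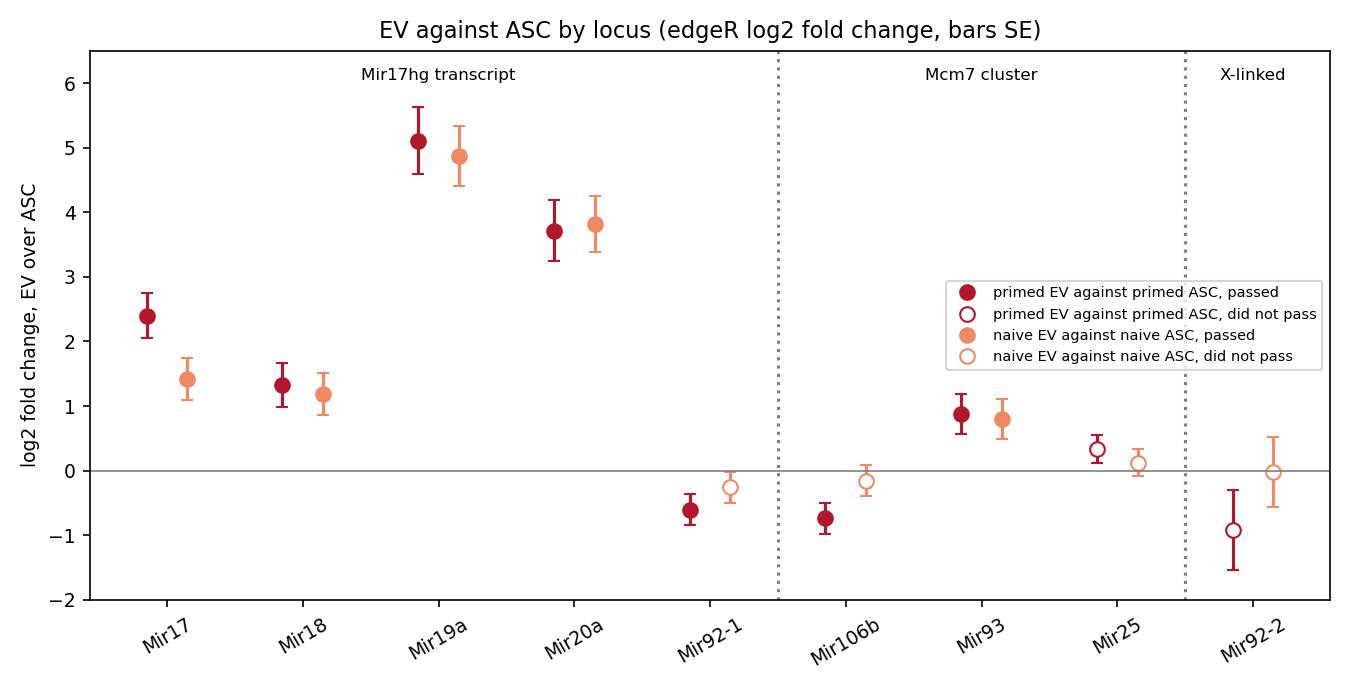
Log2 fold change of EV over ASC for the 9 loci tested, with approximate standard errors as bars, for primed EV against primed ASC and naive EV against naive ASC; filled points passed the adjusted threshold of 0.05 in edgeR's quasi-likelihood test. Within the Mir17hg cluster the values run from 5.11 for Mir19a to −0.61 for Mir92-1 in primed samples.

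Mir19a, which carries the seed group held chiefly responsible for the oncogenic activity of the cluster, had the widest difference of the 9 members. It was at 75.2, 65.2, 55.5, 113 and 49.9 CPM in primed EV 1 to 5, against 2.73, 0, 4.15 and 1.24 CPM in primed ASC 2 to 5. In naive EV 1 to 5 it was at 90.7, 89.1, 55.0, 128 and 59.5 CPM, against 1.72, 1.83, 3.61 and 3.70 CPM in naive ASC 1, 3, 4 and 5. No EV library came near an ASC library, and the ASC values rest on 5 counts in all of primed ASC and 10 in all of naive ASC, against 392 and 434 in primed and naive EVs. With at most 4 counts in any ASC library, Mir19a passed the filter on counts only through EV libraries. The p-values that follow are thus not free of that choice. In primed EVs Mir19a was 34.4-fold higher (5.11 on the log2 scale, SE 0.52, n = 5 and 4; adjusted p = 5.20e-08) and in naive EVs 29.1-fold higher (4.86, SE 0.46, n = 5 and 4; adjusted p = 2.46e-08).

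Mir20a, a seed partner of Mir17, was at 82.7, 63.0, 96.2, 112 and 62.4 CPM in primed EV 1 to 5, against 6.36, 13.4, 4.15 and 2.48 CPM in primed ASC 2 to 5. Naive EV 1 to 5 held it at 77.0, 78.4, 140, 191 and 149 CPM, against 13.7, 6.41, 10.8 and 4.94 CPM in naive ASC 1, 3, 4 and 5. Every EV library stood above every ASC library. The difference was 13.1-fold in primed samples (3.71, SE 0.47; adjusted p = 9.82e-07) and 14.2-fold in naive samples (3.82, SE 0.43; adjusted p = 2.47e-07). Its ASC levels rest on 15 counts in primed and 31 in naive ASC. Like Mir19a, Mir20a passed the filter on counts only through EV libraries, and its p-values are not free of that choice.

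Mir17, the first hairpin of the transcript, had smaller fold changes than Mir20a, from whose mature strand its own differs at 2 of 23 bases. Mir17 was at 195, 105, 191, 239 and 306 CPM in primed EV 1 to 5, against 32.7, 43.0, 29.1 and 49.7 CPM in primed ASC 2 to 5. In naive EV 1 to 5 it was at 179, 173, 233, 389 and 134 CPM, against 72.1, 98.8, 75.9 and 82.7 CPM in naive ASC 1, 3, 4 and 5. EV and ASC libraries did not overlap in either state, and naive EV 4 was the highest of all. The difference was 5.26-fold in primed samples (2.40, SE 0.35; adjusted p = 5.04e-06) and 2.68-fold in naive samples (1.42, SE 0.32; adjusted p = 0.000721).

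Mir18, whose seed is close to that of miR-17 and which is known to target thrombospondin and Ctgf mRNAs, was at 37.6, 34.7, 48.7, 71.5 and 37.4 CPM in primed EV 1 to 5, against 23.6, 18.8, 8.30 and 18.6 CPM in primed ASC 2 to 5. Naive EV 1 to 5 held Mir18 at 52.5, 44.0, 56.8, 81.4 and 57.9 CPM, against 30.9, 23.8, 28.01 and 19.8 CPM in naive ASC 1, 3, 4 and 5. Again every EV library was above every ASC library. Mir18 was 2.51-fold higher in primed EVs (1.33, SE 0.34; adjusted p = 0.00193) and 2.28-fold higher in naive EVs (1.19, SE 0.32; adjusted p = 0.00304). Scaled by library totals alone, the primed value was 0.62 with an adjusted p of 0.0790. That scaling lowered the median of all loci to −0.69 in primed and −0.70 in naive samples, and the value of Mir18 stayed above that median.

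So 4 of 9 members had EV libraries wholly above ASC libraries in primed samples (27.8% of all loci) and in naive samples (30.2% of all loci). In each of the 4 the order of the group means was naive EV, primed EV, naive ASC, primed ASC, and the neighbours naive EV and primed EV overlapped. Primed and naive ASC overlapped for Mir18, Mir19a and Mir20a and did not for Mir17.

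Mir92-1, the most abundant member and in endothelium a known brake on vessel growth, did not share this pattern. It was at 7718, 3763, 6241, 7084 and 6071 CPM in primed EV 1 to 5, against 13034, 7188, 8514 and 8840 CPM in primed ASC 2 to 5. In naive EV 1 to 5 it was at 6697, 8073, 9260, 11909 and 6911 CPM, against 9267, 8892, 7769 and 15041 CPM in naive ASC 1, 3, 4 and 5. Groups overlapped in both states. Mir92-1 was 1.52-fold lower in primed EVs (−0.61, SE 0.24; adjusted p = 0.0323), and this call was lost without primed ASC 2 (−0.46; adjusted p = 0.0730), with no expression filter (−0.55; adjusted p = 0.0679) or with the source name number as a replicate block (−0.60; adjusted p = 0.0528). In naive EVs the value was −0.26 (SE 0.24; adjusted p = 0.344), and it was called lower, at −0.79, when libraries were scaled by totals alone (adjusted p = 0.00803), where the median of all loci was −0.70.

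Mir92-2 makes the same mature strand from the X chromosome and had far fewer counts. It was at 1.88, 3.36, 11.3, 12.99 and 0 CPM in primed EV 1 to 5, against 8.18, 24.2, 8.30 and 8.70 CPM in primed ASC 2 to 5. In naive EV 1 to 5 it was at 11.3, 16.6, 22.6, 16.6 and 9.92 CPM, against 13.7, 15.6, 13.6 and 19.8 CPM in naive ASC 1, 3, 4 and 5. Groups overlapped, and neither the primed value of −0.92 (SE 0.62; adjusted p = 0.204) nor the naive value of −0.02 (SE 0.55; adjusted p = 0.974) passed. By library totals alone the primed value was −1.64 and passed (adjusted p = 0.0220), where the median of all loci was −0.69.

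Mir19b-1 had 4 counts in all of primed EV, 3 in naive EV, 0 in primed ASC and 3 in naive ASC, too few to compare, although its hairpin lies between those of Mir20a and Mir92-1. The 3 counts that a 0 allows correspond to 1.19 CPM over the primed ASC libraries. The other carrier of miR-19b-3p, Mir19b-2, had 7 counts in primed EV and 30 in naive EV and 0 in both ASC groups. Against the 3 counts over naive ASC that a 0 allows, that is at least 6.91-fold higher in naive EVs. In primed EVs the bound was 1.07, but 5 of the 7 counts lay in primed EV 3 and 2 in primed EV 4; it was 0.917 without primed EV 4, and without primed EV 3 the counts fell under the floor, so no difference is shown in primed samples. Of the other loci with a member's seed, Mir363 had 23 and 26 counts in primed and naive EVs and 0 in ASC, at least 3.51-fold and 5.99-fold higher. With 1 EV library left out, the primed bound ran from 2.53 (without primed EV 1) to 5.36 (without primed EV 2). The naive bound ran from 4.17 (without naive EV 4) to 9.48 (without naive EV 1). Mir32 had 28 and 16 counts in primed and naive EVs and 0 in ASC, at least 4.27-fold and 3.69-fold higher. With 1 EV library left out, its bounds ran from 3.30 to 6.25 in primed and from 2.93 to 4.17 in naive samples. Mir18b and Mir20b had 1 count each, both in naive EVs, and Mir106a and Mir367 had 0 in all groups. Such bounds allow for counting error of the 0 in ASC only and take the EV counts as exact, so they are not full lower limits. They leave out the spread between libraries, and reads carried no molecular identifiers. For Mir19b-2 they also leave out how reads that fit Mir19b-1 too were assigned.

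The Mcm7 cluster divided too. Mir93, another seed partner of Mir17, was at 1238, 593, 1011, 1374 and 917 CPM in primed EV 1 to 5, against 326, 516, 544 and 851 CPM in primed ASC 2 to 5. In naive EV 1 to 5 it was at 693, 777, 1199.7, 2023 and 1078 CPM, against 563, 724, 699 and 672 CPM in naive ASC 1, 3, 4 and 5. Groups overlapped in both states, through primed EV 2 and primed ASC 5 in primed samples and through naive EV 1 in naive samples. Mir93 was 1.83-fold higher in primed EVs (0.87, SE 0.31; adjusted p = 0.0192) and 1.73-fold higher in naive EVs (0.79, SE 0.31; adjusted p = 0.0306).

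These Mir93 calls turned on single libraries and on the scaling. Without naive EV 4 the naive value was 0.49 (adjusted p = 0.131), and that library also held the most blood cell (1.49%) and epithelial (0.287%) miRNA counts of all 18. The primed value was 0.60 without primed ASC 2 (adjusted p = 0.0794), 0.74 without primed ASC 3 (adjusted p = 0.0517) and 0.73 without primed ASC 4 (adjusted p = 0.0526). By library totals alone both calls were lost, at 0.15 in primed and 0.29 in naive samples, and limma-voom lost the naive call (0.66; adjusted p = 0.0702). Under totals alone the medians of all loci were −0.69 in primed and −0.70 in naive samples, and both Mir93 values lay above them.

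Mir106b, the first hairpin of that cluster, went the other way in primed samples. It was at 222, 125, 181, 201 and 179 CPM in primed EV 1 to 5, against 301, 282, 382 and 249.7 CPM in primed ASC 2 to 5. Its level was 152, 163, 152, 294 and 187 CPM in naive EV 1 to 5, against 257, 162, 164 and 259 CPM in naive ASC 1, 3, 4 and 5. Every primed EV library was below every primed ASC library, which held for 1 of 9 members (25.7% of all loci), while naive groups overlapped. Mir106b was 1.67-fold lower in primed EVs (−0.74, SE 0.25; adjusted p = 0.0123), and this call was lost when a linear trend on hairpin GC content was removed (−0.26; adjusted p = 0.340) or with no expression filter (−0.66; adjusted p = 0.109). The naive value was −0.15 (SE 0.25; adjusted p = 0.590), was 0.18 with the GC trend removed, and was called lower by library totals alone (−0.66; adjusted p = 0.0261). By totals alone the median of all loci in naive samples was −0.70, close to that value.

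Mir25, which shares its seed with miR-92a and is known to target Bcl2l11, passed in neither comparison. It was at 891, 507, 773, 1000.4 and 717 CPM in primed EV 1 to 5, against 507, 567, 602 and 790.1 CPM in primed ASC 2 to 5. Its level was 621, 686, 833, 1038 and 726 CPM in naive EV 1 to 5, against 643, 754, 656 and 819 CPM in naive ASC 1, 3, 4 and 5. All pairs of groups overlapped. The values were 0.33 in primed samples (SE 0.21; adjusted p = 0.177) and 0.12 in naive samples (SE 0.21; adjusted p = 0.622). Both passed as higher with the GC trend removed (1.21 and 0.72; adjusted p = 0.000136 and 0.00973), and the primed value also passed without primed ASC 5 (0.45; adjusted p = 0.0365). By library totals alone they were −0.40 and −0.38, where the medians of all loci were −0.69 and −0.70.

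By seed, the summed level of the 4 loci with the seed of miR-17 averaged 1499 ± 392 CPM in primed EVs, 1692 ± 719.8 CPM in naive EVs, 908 ± 203 CPM in primed ASC and 966 ± 49.2 CPM in naive ASC (SD, n = 5, 5, 4 and 4). For the seed of miR-19 the sums were 72.1 ± 25.2, 85.2 ± 29.6, 2.03 ± 1.80 and 3.60 ± 0.120 CPM in the same order. In EVs this sum was nearly all Mir19a, since Mir19b-1 averaged 0.440 CPM in primed and 0.761 CPM in naive EVs. In primed and naive ASC Mir19b-1 averaged 0 and 0.886 CPM. Mir19b-2 is not part of the miR-19 sum, which therefore says little of miR-19b-3p. For the seed of miR-92a they were 6959 ± 1679, 9366 ± 2289, 10023 ± 2478 and 10976 ± 3333 CPM. EV and ASC libraries did not overlap in the miR-19 seed sum in either state, overlapped in the miR-92a seed sum in both, and in the miR-17 seed sum overlapped in primed samples only.

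Ratios within a library need no scaling between libraries, so each hairpin was also set against the first hairpin of its own transcript, Mir17 or Mir106b. These anchors moved themselves, so a ratio can shift with little change in its own locus. Mir17 was at 2.40 in primed and 1.42 in naive EVs over ASC, where Mir92-1 was at −0.61 and −0.26. Mir106b was at −0.74 and −0.15, where Mir25 was at 0.33 and 0.12. For each 100 Mir17 counts, the median library held 38.5 Mir19a counts in primed EVs and 44.4 in naive EVs, against 5.42 in primed ASC and 3.43 in naive ASC. The same ratio for Mir20a was 46.6 in primed EVs and 49.1 in naive EVs, against 16.9 in primed ASC and 10.4 in naive ASC. For Mir92-1 it was 3263 in primed EVs and 3979 in naive EVs, against 23545 in primed ASC and 11549 in naive ASC. All 3 ratios separated EV from ASC libraries in naive samples, and those of Mir19a and Mir92-1 did in primed samples too.

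The tests used log2 ratios with 0.5 added to each count. On this scale 4 of 7 naive ratios did not overlap between EVs and ASC. No share over ratios of other loci was computed, so counts of ratios have no background here. Of single loci, 30.2% separated as higher and 28.2% as lower in naive EVs, and 27.8% and 25.7% in primed EVs. The 7 ratios also share the anchors Mir17 and Mir106b and are not separate results. The mean log2 ratio to Mir17 differed by 3.34 for Mir19a (10.1-fold), 2.42 for Mir20a (5.35-fold) and −1.57 for Mir92-1 (2.97-fold lower in EVs), and that of Mir93 to Mir106b by 0.86. In primed samples 4 of 7 did not overlap, namely Mir92-1 and Mir18 to Mir17 (−2.94 and −0.99) and Mir93 and Mir25 to Mir106b (1.65 and 1.07). The separation of Mir18 was made by the 0.5 added to the 2 Mir18 and 7 Mir17 counts of primed ASC 4, since without it the ratios were 12.2 to 33.0 per 100 Mir17 counts in primed EVs and 28.6 to 72.2 in primed ASC and overlapped. Each of these 8 had an exact two-sided permutation p of 0.0159, the smallest that 5 against 4 libraries allow, and an adjusted p of 0.0556 over the 28 ratio tests made. In primed samples the log2 ratios of Mir19a and Mir20a to Mir17 differed by 2.38 and 1.29 and overlapped (exact permutation p = 0.0317, adjusted p = 0.0808 each). For Mir19a that overlap came from the 0.5 added to the 1 Mir19a count of primed ASC 4, since without it the ratios were 16.3 to 62.1 per 100 Mir17 counts in primed EVs and 0 to 14.3 in primed ASC. With nothing added, 4 of 7 primed and 4 of 7 naive ratios separated. Thus 0 of 28 ratios passed after adjustment, while 4 of 7 in naive and 7 of 7 in primed samples had an unadjusted exact p under 0.05. The count of 7 includes Mir19b-1, whose counts are too low for its ratio to be read. Whether ratios passed turned on the setting. With 1 rather than 0.5 added to each count, 5 primed and 4 naive ratios passed. With the sum of the other members of the transcript in place of the first hairpin, 5 and 6 did. Every ratio that passed had the same smallest exact permutation p of 0.0159. Its adjusted p was 0.0494 with 1 added and 0.0404 against the sum, because 9 and 11 tests rather than 8 shared that p. Passing thus rested on how many ratios tied. The 5 primed ratios with 1 added include Mir18 and also Mir19b-1, which had 0 counts in all 4 primed ASC libraries, so that its ratio there holds only the added count.

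**Figure D3:**
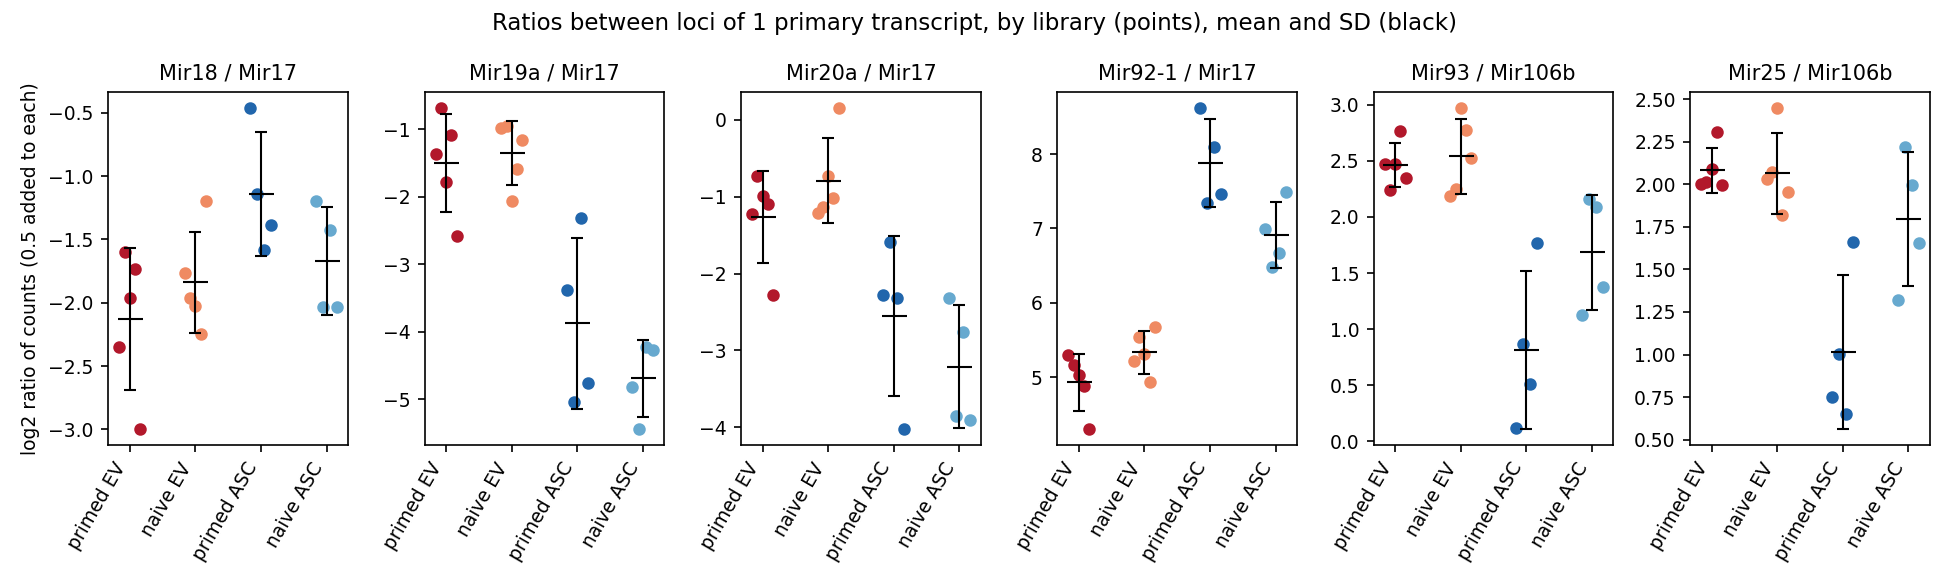
Log2 ratio of counts of each locus to Mir17 or Mir106b of the same library (0.5 added to each count) for primed EV, naive EV, primed ASC and naive ASC, with the mean and SD in black. EV libraries lie above ASC libraries for Mir19a and Mir20a in naive samples and for Mir93 in both states, and below them for Mir92-1 in both states.

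The effect of interferon gamma on the vesicles was asked by comparing primed with naive EVs. In this comparison 0 of 9 members passed in edgeR's quasi-likelihood test, and 0 passed in DESeq2 and limma-voom. Of all 245 loci, 0.816% passed in edgeR, with 3 called higher and 2 lower in DESeq2 and 2 higher in limma-voom. The members' log2 fold changes ran from −1.29 for Mir92-2 to −0.01 for Mir25, with a median of −0.23 beside 0.02 over all loci. All 9 values were below 0, and the groups overlapped for each, where 2.45% of all loci separated. Mir92-2, with 32 counts in primed and 78 in naive EVs, was the 1 member under an unadjusted p of 0.05 in edgeR. Its adjusted p was 0.403. Mir92-1 was at −0.47 (SE 0.23; adjusted p = 0.465) and Mir20a at −0.60 (SE 0.34; adjusted p = 0.529).

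In the cells, primed against naive, 0 of 9 members passed in edgeR, where 10.2% of all loci did, 5.31% as higher and 4.9% as lower. The median of the members was −0.39 beside −0.12 over all loci. Mir17 came closest: it averaged 38.6 ± 9.46 CPM in primed ASC and 82.4 ± 11.8 CPM in naive ASC (SD, n = 4 each), and all 4 primed libraries were below all 4 naive ones. No other member separated, where 6.53% of all loci separated as higher and 4.9% as lower. The fold change of Mir17 was −1.07 (SE 0.35; unadjusted p = 0.00627, adjusted p = 0.0573 in edgeR). It passed in 2 of 11 alternatives, DESeq2 (−0.96; adjusted p = 0.0473) and library totals alone (−1.15; adjusted p = 0.0290), and not in the others, limma-voom among them. It also passed in 5 of the 18 fits that left out a library, namely naive EV 4, naive EV 5, primed ASC 5, primed EV 2 or primed EV 5, with adjusted p from 0.0244 to 0.0493. The EV libraries among these are not part of this comparison and act only through the shared fit. Over the 18 fits the value of Mir17 ranged from −1.23 to −0.87. Mir106b was at 0.52 (SE 0.26; adjusted p = 0.235), the 1 member with a mean above that of naive ASC, at 304 ± 56.3 CPM in primed ASC and 211 ± 54.9 CPM in naive ASC.

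Whether the effect of priming differed between EVs and cells was tested as an interaction. It was called for 0 of 9 members and 0% of all loci in edgeR, with 1 member under an unadjusted p of 0.05. That member was Mir17 (0.97, SE 0.45; unadjusted p = 0.0445, adjusted p = 0.412), and neither DESeq2 nor limma-voom called a member. None of the 14 ratios in the 2 priming comparisons separated, and the smallest exact permutation p was 0.0952 in EVs and 0.0857 in ASC.

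Beyond the seed, the members differ in base composition. The mature arms hold from 34.8% G or C in miR-19a-3p and 39.1% in miR-20a-5p to 57.1% in miR-92a-3p, and the loci with the fewest had the widest EV difference. Across the 9 loci tested, the log2 fold change of EV over ASC and the GC content of the mature arm had a Pearson r of −0.790 in primed and −0.808 in naive samples (Spearman rho −0.703 in both). Mir19a and Mir20a, the tested loci with the fewest ASC counts, lay well above the rest, and no r was computed without them. With the GC content of the whole hairpin, the r of the same 9 loci was −0.495 in primed and −0.524 in naive samples (rho −0.633 and −0.667). Mir106b stood apart, with 42.9% GC and values of −0.74 and −0.15. This describes 9 loci that share libraries and clusters, and 2 of them share a mature strand. A locus count sums both arms, and which arm the reads came from was not measured. For mature arms no r was computed over all loci. Over the 209 of 245 loci that have a RefSeq hairpin, the r between hairpin GC and log2 fold change was −0.324 in primed and −0.223 in naive samples. With a linear trend on hairpin GC removed in each library, the calls for Mir17, Mir18, Mir19a, Mir20a and Mir93 held in both comparisons, but that correction uses the hairpin and not the mature arm.

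**Figure D4:**
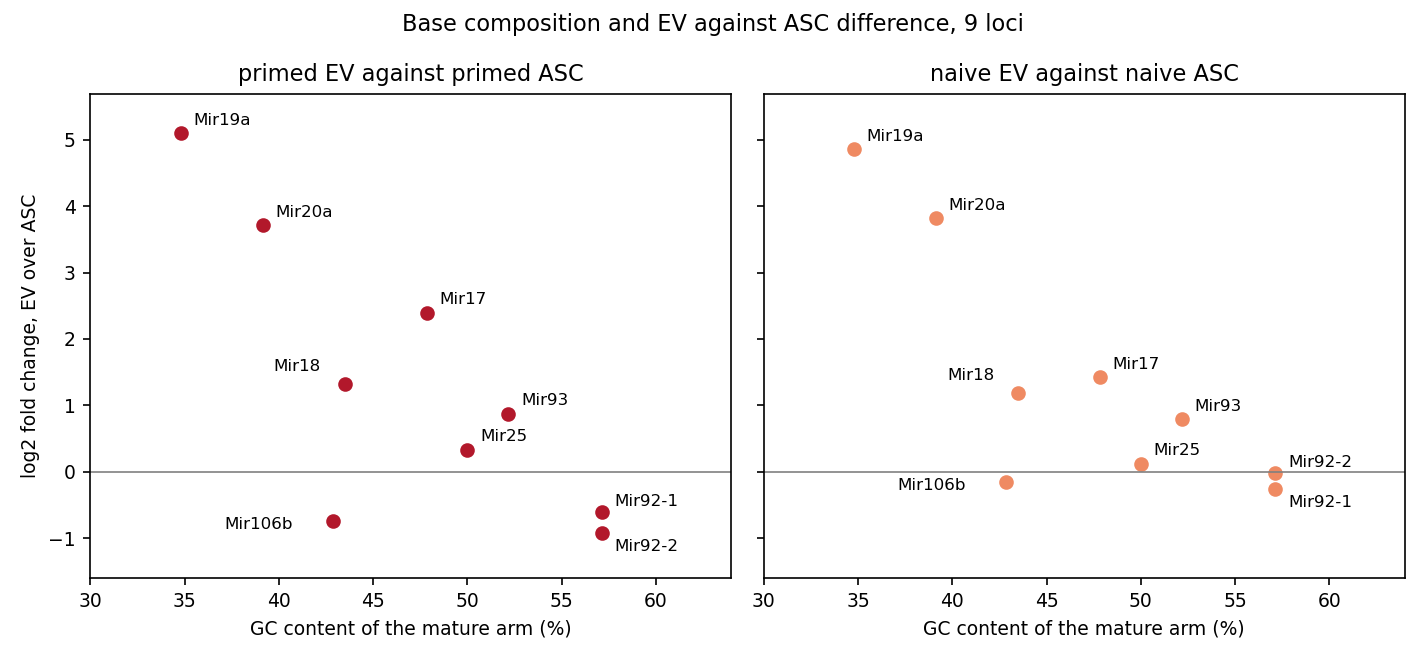
GC content of the mature arm (percent) against the log2 fold change of EV over ASC for the 9 loci tested, in primed samples and in naive samples. Mir19a and Mir20a, at 34.8% and 39.1% GC, lie highest, and Mir92-1 and Mir92-2, at 57.1%, lie at or below 0.

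Over the 18 libraries, log2(CPM + 1) of Mir17, Mir18, Mir19a and Mir20a varied together, with pairwise Pearson r from 0.809 to 0.912. Mir92-1, of the same transcript, had r from −0.400 to −0.199 with these 4. Mir93 and Mir25 had an r of 0.891 with each other, and Mir106b of the same cluster had −0.193 and 0.0295 with them. Mir93 had an r of 0.826 with Mir17. The 18 points share the split into EV and ASC libraries, and no values within a group were computed.

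Outside the members, the loci whose levels were most like the summed Mcm7 cluster over the 18 libraries were Mir141 (r = 0.785), Mir130b (0.782), Mir429 (0.741), Mir708 (0.710) and Mir335 (0.699). Mir141 and Mir429 belong to the epithelial miR-200 family. For the summed Mir17hg cluster, which Mir92-1 dominates, they were Mir181a-1 (r = 0.716), Mir342 (0.688), Mir92b (0.676), Mir26a-2 (0.656) and Mir6944 (0.650).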

How the data were processed

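The deposited values are raw read counts per annotated miRNA hairpin locus, in a file per library, with no scaling by the authors. Per the file headers, counts were made with featureCounts 1.5.3 on Ensembl release 76 miRNA genes, ignoring strand and with no option for multi-mapping reads; the submitters' processing notes name featureCounts 1.45, STAR 2.0.4, Subread and bcl2fastq on GRCm38. Trimming and aligner options were not given in the sources used here. A locus count sums both arms of a hairpin.

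Names came from GENCODE M21, which held 1899 of 2009 loci. Loci were kept with filterByExpr (245 loci, 99.957% of counts), scaled by TMM and fitted in edgeR 4.0.16 (limma 3.58.1, R 4.3.3), with a mean per group over all 18 libraries and p-values adjusted by Benjamini-Hochberg at 0.05. SE is the size of the log2 fold change divided by the root of the F statistic, an approximation. Ratios used exact two-sided permutation tests (scipy 1.17.1), adjusted over 28. No 2 libraries were identical. The fit was checked on simulated counts. All 10 members are named; outside them, seed relatives, marker lists (mesenchymal, blood cell, endothelial, epithelial, liver and serum, striated muscle) and the 5 loci most like each transcript's sum. Members and lists were chosen with earlier results of these data known. Alternatives were other scalings (RLE, TMMwsp, totals alone), no or a stricter filter (at least 10 CPM in 4 libraries), DESeq2 1.42.0, limma-voom, GC trend removal, fits of only the 2 groups compared, replicate blocks and leaving out each library.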

Additional observations from a re-analysis of the deposited data

Results flagged for a closer look

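Of 39 sets of values of a member in a group, 2 held a library far from the others, and chance flags about 1 in 20. Mir92-2 was at 24.2 CPM in primed ASC 3, where the next of the 4 libraries was at 8.70 CPM and the lowest at 8.18 CPM; its 9 counts come from a library of 303069 counts. Mir106b was at 294 CPM in naive EV 4, where the next of the 5 libraries was at 187 CPM and the lowest at 152 CPM. Naive EV 4 was also the highest naive EV library for Mir17, Mir18, Mir19a, Mir20a, Mir92-1, Mir93 and Mir25.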

How the results depend on the processing

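The higher calls for Mir17, Mir19a and Mir20a in EVs held in both comparisons under all 11 alternatives and all 18 fits that left out a library, and that for Mir18 in naive EVs did too. Mir19a ranged from 4.42 to 5.19 under the alternatives in primed and from 4.41 to 5.06 in naive samples. Leaving out a library gave 5 to 8 called members in primed EVs against primed ASC, 4 to 5 in naive EVs against naive ASC, 0 to 1 in primed against naive ASC, and 0 in primed against naive EVs and for the interaction. With all libraries, 68.2%, 66.1%, 10.2%, 0.816% and 0% of all loci were called in these, and the shares without a library are not given here. Leaving out a library gave 0 ratios past the threshold, where fewer libraries raise the smallest p. In primed against naive ASC, 1 member passed under DESeq2 and 1 by library totals alone. Of all 245 loci there, 28 were called higher and 12 lower under DESeq2, and 11 and 14 by totals alone. Of the ratios, 5 primed and 4 naive passed with 1 added, and 5 and 6 against the sum of the other members. All of these shared the smallest p possible, and passing rested on how many ratios tied at it. The 5 primed ratios with 1 added include Mir19b-1, which had 0 counts in primed ASC, so that the added count makes its ratio there.

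Values that changed sign were all short of the threshold. In naive EVs against naive ASC, Mir106b was 0.18 with the GC trend removed and 0.040 with TMMwsp; Mir25 was −0.38 by totals alone; Mir92-2 was 0.079 with DESeq2, 0.078 with RLE, 0.15 with TMMwsp, 0.064 with the stricter filter and 0.0063 with the replicate block of the source names. In primed EVs against primed ASC, Mir25 was −0.40 by totals alone. In primed against naive EVs, Mir25 was 0.057 with the GC trend removed and 0.028 with no filter. In primed against naive ASC, Mir92-1 was 0.018 with DESeq2 and RLE, 0.0040 with TMMwsp and 0.0024 with only the 2 groups fitted. For the interaction, Mir18 was −0.10 with DESeq2 and totals alone, −0.071 with RLE, −0.18 with TMMwsp, −0.020 with the GC trend removed, −0.034 with the stricter filter, and −0.014 and −0.0092 with the replicate blocks of source names and titles. Mir19a was −0.086 with TMMwsp. Mir25 was −0.015 with DESeq2, −0.013 by totals alone, −0.017 with RLE and −0.080 with TMMwsp. Mir93 was −0.14 with DESeq2, RLE and totals alone, −0.22 with TMMwsp, −0.081 with the stricter filter and −0.024 with the title block.

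Leaving out a library changed signs of other uncalled values. In naive EVs against naive ASC the ranges were −0.36 to 0.072 for Mir106b, −0.0067 to 0.29 for Mir25, −0.41 to 0.090 for Mir92-1 and −0.18 to 0.21 for Mir92-2. In primed against naive EVs they were −0.17 to 0.17 for Mir106b, −0.23 to 0.21 for Mir17, −0.11 to 0.14 for Mir25 and −0.26 to 0.16 for Mir93, and in primed against naive ASC −0.30 to 0.17 for Mir92-1. For the interaction they were −0.24 to 0.30 for Mir18, −0.19 to 0.49 for Mir19a, −0.56 to 0.18 for Mir20a, −0.025 to 0.37 for Mir25 and −0.24 to 0.41 for Mir93. The cause of these changes was not tested.

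Pairs of libraries with the same source name number correlated in their deviations from the group means at 0.13 to 0.52 for numbers 1 to 4 and at −0.16 to 0.076 for number 5. Because not every pair was over 0.1, the numbers were not used as pairs, but a preparation shared by numbers 1 to 4 was not tested. Epithelial miRNAs took 0.0376 to 0.287% of counts in libraries numbered 3 or 4 and 0.000721 to 0.00636% in those numbered 1 or 2. With the replicate block of the source names, 6 members passed in primed EVs against primed ASC, Mir92-1 being lost (−0.60; adjusted p = 0.0528), and 5 in naive; with the title block 7 and 5 did. Of all 245 loci, 88 were called higher and 78 lower in primed samples with the source name block, and 84 and 82 in naive samples. With the title block these were 89 and 80 in primed and 85 and 82 in naive samples. Depth limits mainly the ASC levels of Mir19a and Mir20a, Mir92-2 and Mir19b-1.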
